A study of Mus musculus with 6 samples.

Results

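The clustered protocadherins were examined in mouse leukemia cells labelled Rbm5 KO and Rbm5 WT. They were taken as the protein-coding genes of the deposited count table whose names begin with Pcdha, Pcdhb or Pcdhg and that lie on chromosome 18. That rule gave 58 of 56748 genes, of which 14 belong to the alpha cluster, 22 to the beta cluster and 22 to the gamma cluster, and 0 genes with such names lay on another chromosome. The rule itself uses only name, biotype and chromosome, but the family was chosen by its measured Rbm5 KO against Rbm5 WT fold changes and adjusted p-values. Those values of its members are therefore a description of these libraries and support nothing further.

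Protocadherins are cell-surface adhesion proteins of the cadherin superfamily. In the clustered family, many genes stand in tandem, each with its own promoter. In the alpha and gamma clusters the chosen first exon is spliced to constant exons that encode a common cytoplasmic tail, whereas each beta gene is read from its own exon and has no such tail. In neurons a small and partly random choice of members is expressed in each cell, and the resulting surface code lets a neuron tell its own branches from those of others. CTCF, cohesin and DNA methylation are known to act on that choice of promoter. The C-type genes at the end of the alpha and gamma clusters are expressed more evenly among neurons than the other members.

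Bulk RNA sequencing gave 3 libraries labelled Rbm5 KO (numbers 31, 32 and 40) and 3 labelled Rbm5 WT (numbers 25, 27 and 29). All 6 came from bone marrow with MLL-AF9 leukemia, in which part of the chromatin regulator MLL is fused to AF9. RBM5 is an RNA-binding protein of pre-mRNA splicing, and the study asked how it acts on the self-renewal program of this leukemia. The labels give the cell type as whole bone marrow, while the extraction notes also speak of cultured cells. Nothing on strain, age, sex or how Rbm5 was deleted was given in the sources used here. The labels call the replicates independent.

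Total counts were 26359299 to 27638075 in Rbm5 KO libraries and 27140474 to 31807588 in Rbm5 WT libraries. Rbm5 itself was at 245 to 269 CPM (counts relative to library size, scaled by TMM) in Rbm5 KO libraries and 174 to 227 CPM in Rbm5 WT libraries, so it was not lower in the libraries labelled Rbm5 KO, and each direction below rests on the labels. The 4 Y chromosome genes (Uty, Kdm5d, Ddx3y and Eif2s3y) together had 6899 to 7358 counts in Rbm5 KO libraries and 0 in each Rbm5 WT library, so the sex of the animals and the labelled genotype cannot be told apart. The 10 listed erythroid markers summed to 3.72 to 5.54 CPM in Rbm5 KO libraries and 1.46 to 3.09 CPM in Rbm5 WT libraries. Of 4 erythroid markers tested, Hbb-bs rose, but not without Rbm5 KO library 31 or 40 or Rbm5 WT library 27 or 29. Of 10 mature neutrophil markers, 6 rose in Rbm5 KO by edgeR's quasi-likelihood test, where 5.45% of all genes tested were called higher. The number was 2 without Rbm5 KO library 31 or 40 or Rbm5 WT library 27. It was 4 without Rbm5 WT library 25, 5 without Rbm5 WT library 29 and 7 without Rbm5 KO library 32. DESeq2 and limma-voom each called 9 higher, and by edgeR all 10 markers had an unadjusted p under 0.05. Their summed level was 9040 to 16300 CPM in Rbm5 KO libraries and 472 to 2220 CPM in Rbm5 WT libraries. This difference in maturation genes runs with every comparison below, and its part in the results was not tested.

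The 3 clusters differed in how much of each was read. The alpha cluster (chromosome 18, 37063237 to 37320714, in the coordinates of the deposited table, which name no build) was close to silent, with 0 counts in all Rbm5 KO libraries and 2 counts in all Rbm5 WT libraries together. Both counts were of Pcdha9 in Rbm5 WT library 25, and the other 13 alpha genes, the C-type Pcdhac1 and Pcdhac2 among them, had 0 counts in all 6 libraries. A count of 0 allows up to 3 counts in a library, which is 0.112 to 0.123 CPM in Rbm5 KO libraries and 0.0882 to 0.104 CPM in Rbm5 WT libraries, counting error only.

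The beta cluster (37397991 to 37657532) stood far lower in Rbm5 KO libraries. Its 22 genes together had 32, 80 and 28 counts in Rbm5 KO libraries 31, 32 and 40, against 694, 327 and 279 counts in Rbm5 WT libraries 25, 27 and 29. On the scaled level this was 1.80 ± 1.09 CPM in Rbm5 KO and 13.5 ± 6.08 CPM in Rbm5 WT (SD, n = 3 each), 7.53-fold lower in Rbm5 KO (log2 ratio -2.91). Every Rbm5 WT library exceeded every Rbm5 KO library, and within each group 1 library stood above the others, number 32 in Rbm5 KO and number 25 in Rbm5 WT. Without Rbm5 KO library 32 the log2 ratio was -3.54, without Rbm5 WT library 25 it was -2.49, and without both Rbm5 WT libraries 27 and 29 it was -3.51.

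The gamma cluster (37794846 to 37974926) differed less in total. Its 22 genes together had 145, 154 and 135 counts in Rbm5 KO libraries 31, 32 and 40, against 321, 229 and 326 counts in Rbm5 WT libraries 25, 27 and 29. The summed level was 5.60 ± 0.257 CPM in Rbm5 KO and 9.24 ± 1.21 CPM in Rbm5 WT (SD, n = 3 each), 1.65-fold lower in Rbm5 KO (log2 ratio -0.72). The groups did not overlap in this sum, and the Rbm5 KO libraries lay close together. In these bulk samples, fewer cells that express a member and less RNA of it per cell cannot be told apart.

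**Figure D1:**
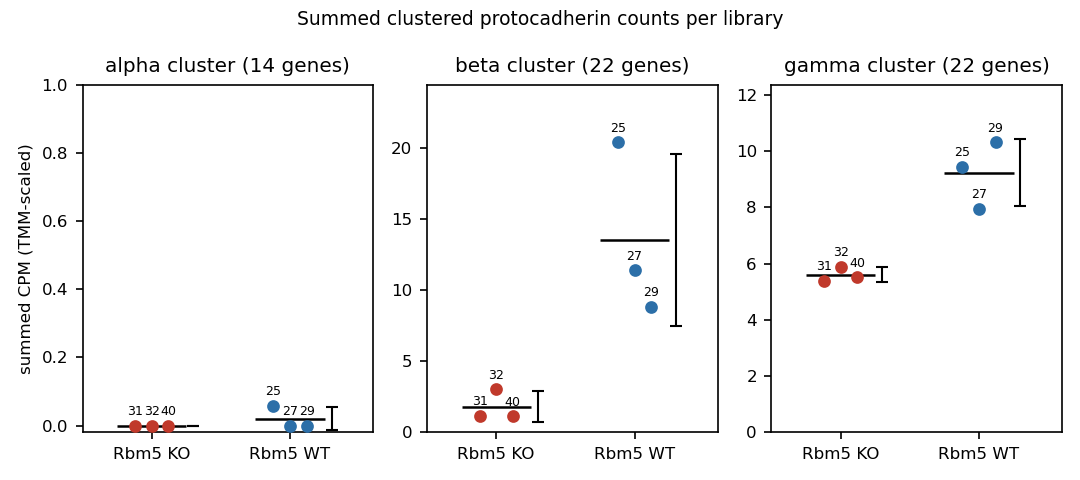
Summed level of the alpha, beta and gamma clusters in each library, in CPM after TMM scaling, with Rbm5 KO on the left and Rbm5 WT on the right. Points are libraries with their numbers, horizontal lines are means and the bars beside them are SDs (n = 3 each), and each cluster has its own vertical scale. The alpha cluster lies at or near 0, and in the beta and gamma clusters all Rbm5 WT libraries lie above all Rbm5 KO libraries.

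Most members were barely read. Of the 58 genes, 18 had 0 counts in every library (13 alpha genes, 4 beta genes and Pcdhga10), 30 had some counts but too few to be tested, and 10 passed edgeR's filter on low counts, 5 of the beta and 5 of the gamma cluster. Of those 10, Pcdhb5, Pcdhb16, Pcdhb17, Pcdhb19 and Pcdhgc3 had under 10 counts in every Rbm5 KO library, so they passed only through their Rbm5 WT counts and had to differ. Pcdhb22, Pcdhgb5 and Pcdhgb6 reached 10 counts in every Rbm5 WT library but not in every Rbm5 KO library. For Pcdhgb2 it was the reverse, so the passage of these genes also leaned on 1 group. By edgeR's quasi-likelihood test, adjusted over all 15963 genes tested, 4 of the 10 fell in Rbm5 KO and 0 rose, where 3.12% of all genes tested were called lower and 5.45% were called higher. At an unadjusted p under 0.05 the numbers were 8 lower and 1 higher, and that share was not counted over all genes. DESeq2 called 7 lower and 1 higher, where 1054 and 1553 of all 15963 genes tested were called. By limma-voom 5 were lower and 0 higher, where 466 and 849 of all genes tested were called. Since the family was picked knowing this contrast, nothing is read from these shares.

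Even the best-read members were weakly expressed. Set per kilobase of the gene length in the table, Pcdhb17 and Pcdhb16 led in Rbm5 WT with 0.749 and 0.736 CPM per kilobase, followed by Pcdhb5 at 0.606 and Pcdhgb4 at 0.417 CPM per kilobase. Those of Pcdhb17 lay above 36.7% of the 16684 protein-coding genes with at least 1 count, and those of Pcdhgc3 (0.354 CPM per kilobase) above 32.2%. In Rbm5 KO the order was another, with Pcdhgb2 first at 0.343 CPM per kilobase and Pcdhgb4 next at 0.161 CPM per kilobase, while Pcdhb16 and Pcdhb17 stood at 0.0302 and 0.0377 CPM per kilobase. For gamma genes these values depend on how reads of the constant exons were assigned, and nothing on this was given in the sources used here. In the GENCODE annotation of GRCm38, whose exon lengths equal those of the table for all 58 genes, 27.8% to 66.8% of a gamma gene's exon bases and 38.0% to 54.9% of an alpha gene's are shared with other members.

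Beta genes encode adhesion molecules that pair with like molecules on other cells, and the members named here are described only by that shared role. Pcdhb16 (ENSMUSG00000047910, 37610867 to 37616091, plus strand) had 4, 1 and 7 counts in Rbm5 KO libraries 31, 32 and 40, against 185, 108 and 74 counts in Rbm5 WT libraries 25, 27 and 29. It was near 0 in all Rbm5 KO libraries, and the groups did not overlap. Its mean was 0.158 ± 0.124 CPM in Rbm5 KO and 3.85 ± 1.55 CPM in Rbm5 WT (SD, n = 3 each). The log2 fold change was -4.59 (95% interval -6.03 to -3.15, edgeR adjusted p = 0.00824), which ranked 28 from the largest fall among all genes tested. Pcdhb16 was also called in each fit that left out 1 library, with log2 fold changes from -5.29 without Rbm5 KO library 40 to -4.13 without Rbm5 KO library 32. It passed the filter only through its Rbm5 WT counts, so these calls are no separate support.

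Pcdhb17, its neighbor (ENSMUSG00000046387, 37617848 to 37622507), had 8, 6 and 0 counts in Rbm5 KO libraries 31, 32 and 40, against 181, 97 and 56 counts in Rbm5 WT libraries 25, 27 and 29. The libraries followed the same order as for Pcdhb16 in Rbm5 WT, with number 25 highest and number 29 lowest. The log2 fold change was -4.26 ± 0.81 SE (edgeR adjusted p = 0.0229). The adjusted p by edgeR was 0.0548 and the log2 fold change -4.85 without Rbm5 KO library 31, and the adjusted p was 0.0516, 0.0541 and 0.0526 without Rbm5 KO library 32, Rbm5 WT library 25 and Rbm5 WT library 27. The log2 fold change was -4.88 without both Rbm5 WT libraries 27 and 29, and -3.70 without Rbm5 KO library 40.

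Pcdhb5 (ENSMUSG00000063687, 37453434 to 37456968) lies apart from these, nearer the 5′ end of the array, between genes with few or no counts. It had 0, 4 and 1 counts in Rbm5 KO libraries 31, 32 and 40, against 113, 39 and 55 counts in Rbm5 WT libraries 25, 27 and 29. Again Rbm5 WT library 25 was highest, and the groups did not overlap. Its log2 fold change was -4.96 ± 0.81 SE (edgeR adjusted p = 0.0143, and 0.0664 without Rbm5 KO library 40). That fold change was -6.49 without Rbm5 KO library 32, -4.39 without Rbm5 KO library 31 and -5.60 without both Rbm5 WT libraries 27 and 29. Its next neighbors in the array on either side, Pcdhb4 and Pcdhb6, had 2 and 0 counts over all 6 libraries.

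Pcdhb19 and Pcdhb22 had lower values in Rbm5 KO without passing the edgeR test. Pcdhb19 had 0, 4 and 0 counts in Rbm5 KO libraries 31, 32 and 40, against 40, 15 and 14 counts in Rbm5 WT libraries 25, 27 and 29 (log2 fold change -3.69 ± 1.01 SE, edgeR adjusted p = 0.0602). Pcdhb22 had 11, 19 and 9 counts in Rbm5 KO libraries, against 83, 30 and 50 counts in Rbm5 WT libraries (log2 fold change -1.75 ± 0.48 SE, edgeR adjusted p = 0.0625). By DESeq2 both passed, with adjusted p-values of 0.0248 for Pcdhb19 and 0.0232 for Pcdhb22. Pcdhb19 also passed by limma-voom (adjusted p = 0.0358) and, by edgeR, without Rbm5 KO library 32 (adjusted p = 0.0372), the only Rbm5 KO library in which it had a count. Pcdhb22 was the beta gene with the most counts left in Rbm5 KO libraries 31 and 40. Its annotated exon shares 455 bases with that of Pcdhb21, so reads there are uncertain, and beta genes also resemble one another in sequence.

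Neighboring beta genes at the 3′ end of the array were lower together in Rbm5 KO, but the fall was not particular to them. Pcdhb16 to Pcdhb22 summed to a log2 ratio of -3.58, and Pcdhb5 to Pcdhb15, most of it Pcdhb5, to -3.62. The 7 neighboring genes Pcdhb16 to Pcdhb22 at its 3′ end, singled out after their values were seen, together had 23, 32 and 16 counts in Rbm5 KO libraries 31, 32 and 40, against 554, 277 and 212 counts in Rbm5 WT libraries 25, 27 and 29. Each of the 7 had groups that did not overlap, lower in Rbm5 KO, which was the case for 16.5% of all genes tested. Only 4 of the 7 were tested, and Pcdhb16, Pcdhb17 and Pcdhb19 passed the filter only through Rbm5 WT counts. That share is therefore no measure for these 7 genes. Among those with too few counts to be tested, Pcdhb20 and Pcdhb21 had 0 counts in Rbm5 KO and 33 and 36 counts over the Rbm5 WT group, at least 9.04-fold and 9.86-fold lower in Rbm5 KO against a floor of 3 counts over the group. Pcdhb18 had 2 counts over Rbm5 KO and 41 over Rbm5 WT, a ratio of Rbm5 WT to Rbm5 KO of 16.8 (95% counting interval 4.38 to 144).

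At the 5′ end of the array the values went the other way, mainly in a single library. Pcdhb2 had 2, 21 and 6 counts in Rbm5 KO libraries 31, 32 and 40, against 1, 4 and 0 counts in Rbm5 WT libraries 25, 27 and 29. Pcdhb3 had 1, 23 and 0 counts in Rbm5 KO libraries, against 3, 0 and 0 counts in Rbm5 WT libraries. In Rbm5 KO library 32 these were the leading beta genes, with 28.8% (Pcdhb3) and 26.2% (Pcdhb2) of its 80 beta counts, while Pcdhb22 led in Rbm5 KO libraries 31 and 40 and Pcdhb16 in all 3 Rbm5 WT libraries. The 4 genes Pcdhb1 to Pcdhb4 summed to a log2 ratio of 2.68, and of 0.75 without Rbm5 KO library 32. Neither gene passed the filter on low counts.

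Between Pcdhb5 and Pcdhb16 the array was nearly unread. Of the 10 genes from Pcdhb6 to Pcdhb15, Pcdhb6, Pcdhb10 and Pcdhb15 had 0 counts in all 6 libraries. Pcdhb12 had 0 counts in each Rbm5 KO library and 11, 3 and 2 counts in Rbm5 WT libraries 25, 27 and 29, at least 4.38-fold lower in Rbm5 KO. Pcdhb7 had 0 counts in Rbm5 KO and 11 over Rbm5 WT, at least 3.01-fold lower, and no other of these had more than 6 counts over a group. The ratios and floors cover counting error only.

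**Figure D2:**
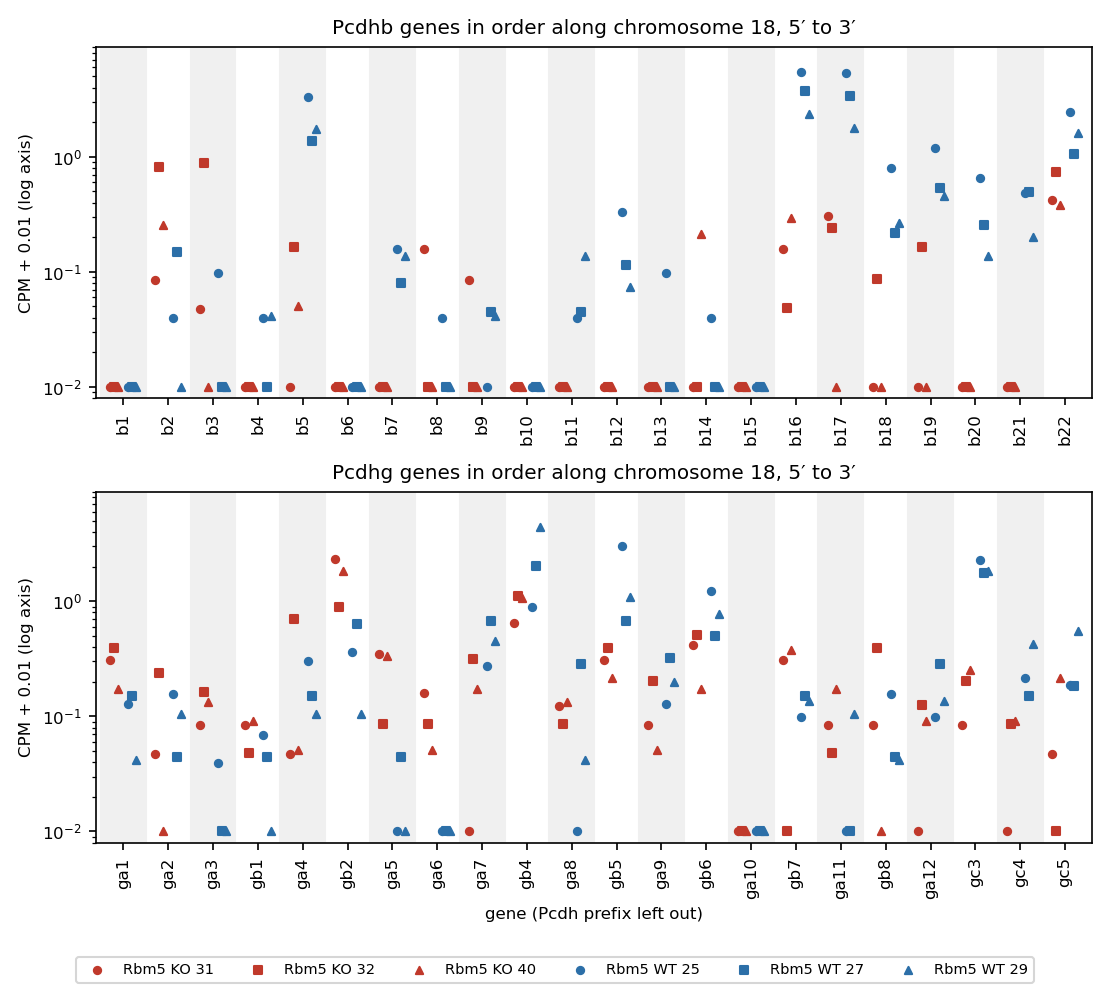
Level of each beta gene (upper panel) and gamma gene (lower panel) in each library, in CPM plus 0.01 on a log axis, in the order of the genes on chromosome 18 from 5′ to 3′. Red symbols are Rbm5 KO libraries and blue symbols Rbm5 WT libraries, with 1 symbol shape for each library, and points at the bottom of the axis are counts of 0. All blue points stand above the red ones at Pcdhb5, Pcdhb7, Pcdhb11 and Pcdhb12, from Pcdhb16 to Pcdhb22, and at Pcdhgb5, Pcdhgc3 and Pcdhgc4. All red points stand above the blue at Pcdhga1, Pcdhga3, Pcdhgb2, Pcdhga5 and Pcdhga6. Groups did not overlap for 16.5% (lower in Rbm5 KO) and 17.2% (higher) of all genes tested. Many of the genes named here had too few counts to be tested, so those shares are no measure for them. At Pcdhb11 the separation rests on 1, 1 and 4 counts in Rbm5 WT libraries, and at Pcdhga6 on 4, 2 and 1 counts in Rbm5 KO libraries.

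Within the gamma cluster the members did not move together. The C-type gene Pcdhgc3 fell. It encodes the gamma protocadherin that binds AXIN1, a scaffold of the Wnt pathway, in neurons. Pcdhgc3 (ENSMUSG00000102918, 37939417 to 37974926, plus strand) had 2, 5 and 6 counts in Rbm5 KO libraries 31, 32 and 40, against 77, 51 and 57 counts in Rbm5 WT libraries 25, 27 and 29. Of the 4 called members it was the most even within Rbm5 WT, at 0.170 ± 0.0873 CPM in Rbm5 KO and 1.95 ± 0.275 CPM in Rbm5 WT (SD, n = 3 each). The log2 fold change was -3.50 ± 0.49 SE (edgeR adjusted p = 0.00900), with adjusted p-values of 0.0214 to 0.0273 when any 1 library was left out.

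The other C-type gamma genes were too low to be tested. Pcdhgc4, which neurons need for their survival, had 0, 2 and 2 counts in Rbm5 KO libraries 31, 32 and 40, against 7, 4 and 13 counts in Rbm5 WT libraries 25, 27 and 29. Pcdhgc5 had 1, 0 and 5 counts in Rbm5 KO libraries, against 6, 5 and 17 counts in Rbm5 WT libraries. For Pcdhgc4 the groups did not overlap, and for Pcdhgc5 a Rbm5 KO library reached the level of the lowest Rbm5 WT libraries. Together the 3 C-type gamma genes summed to 0.303 ± 0.212 CPM in Rbm5 KO and 2.50 ± 0.362 CPM in Rbm5 WT (SD, n = 3 each). The log2 ratio was -3.04 (-3.72 without Rbm5 KO library 40 and -2.64 without Rbm5 KO library 31). An antisense gene that overlaps the start of Pcdhgc3, BC037039, had 0 counts in each Rbm5 KO library and 0, 3 and 2 counts in Rbm5 WT libraries 25, 27 and 29.

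Pcdhgb2 was the tested member with the opposite sign. It had 62, 23 and 45 counts in Rbm5 KO libraries 31, 32 and 40, against 12, 18 and 3 counts in Rbm5 WT libraries 25, 27 and 29. All Rbm5 KO libraries lay above all Rbm5 WT libraries, as was the case for 17.2% of genes tested. Its mean was 1.67 ± 0.727 CPM in Rbm5 KO and 0.358 ± 0.265 CPM in Rbm5 WT (SD, n = 3 each), a log2 fold change of 2.22 (95% interval 0.71 to 3.74) that did not pass by edgeR (adjusted p = 0.0753) and did by DESeq2 (adjusted p = 0.0194). Without Rbm5 WT library 27 the log2 fold change of Pcdhgb2 was 2.85 (edgeR adjusted p = 0.0776), and without Rbm5 WT library 29 it was 1.78 (edgeR adjusted p = 0.126).

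Pcdhgb4, Pcdhgb5 and Pcdhgb6 varied widely among the Rbm5 WT libraries. Pcdhgb4 had 17, 29 and 26 counts in Rbm5 KO libraries 31, 32 and 40, against 30, 58 and 138 counts in Rbm5 WT libraries 25, 27 and 29 (log2 fold change -1.37 ± 0.59 SE, edgeR adjusted p = 0.180). Pcdhgb5 had 8, 10 and 5 counts in Rbm5 KO libraries, against 102, 19 and 34 counts in Rbm5 WT libraries (log2 fold change -2.41 ± 0.65 SE, edgeR adjusted p = 0.0596). Pcdhgb4 was highest in Rbm5 WT library 29 and Pcdhgb5 in Rbm5 WT library 25, so these genes did not share the order of the Rbm5 WT libraries. Pcdhga8 lies between them in the array. Pcdhgb6 had overlapping groups (log2 fold change -1.19 ± 0.56 SE, edgeR adjusted p = 0.219). The log2 fold change of Pcdhgb4 was -0.63 without Rbm5 WT library 29 and 0.07 without both Rbm5 WT libraries 27 and 29, and that of Pcdhgb5 was -1.55 without Rbm5 WT library 25. Pcdhgb5 passed by DESeq2 (adjusted p = 0.0132) and, by edgeR, without both Rbm5 WT libraries 27 and 29 (log2 fold change -3.34, adjusted p = 0.0373).

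**Figure D3:**
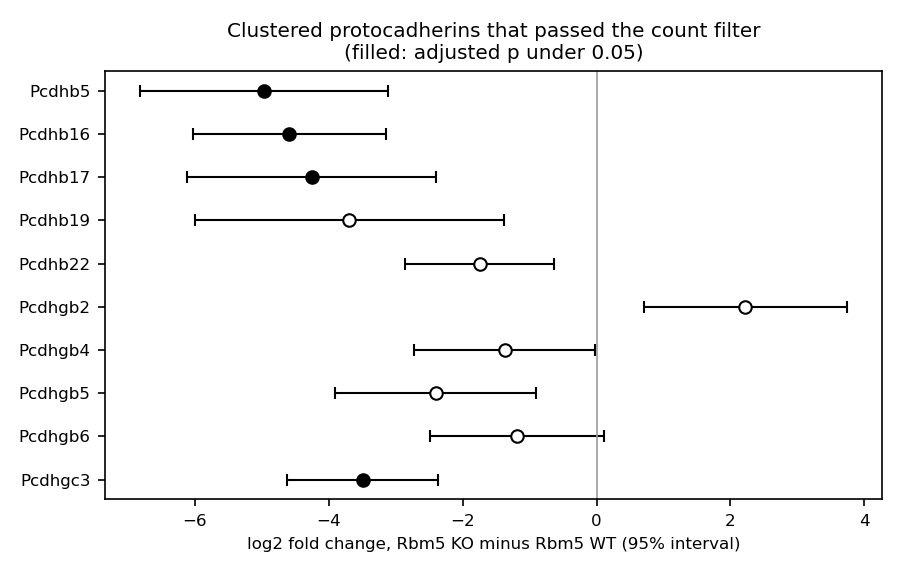
Log2 fold change, Rbm5 KO minus Rbm5 WT, of the 10 clustered protocadherins that passed the count filter, in the order of the genes on the chromosome from top to bottom. Lines are 95% intervals of edgeR's quasi-likelihood fit, and filled points have an adjusted p under 0.05 over all genes tested. The filled points are Pcdhb5, Pcdhb16, Pcdhb17 and Pcdhgc3, and Pcdhgb2 is the point above 0.

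The makeup of the gamma counts differed from library to library. Pcdhgb2 made up 42.8% of the 145 gamma counts in Rbm5 KO library 31 (Wilson 95% interval 35.0% to 50.9%) and 33.3% of 135 in Rbm5 KO library 40 (25.9% to 41.6%). In Rbm5 KO library 32 no member stood out, with 18.8% for Pcdhgb4 and 14.9% for Pcdhgb2 of 154 counts. Among Rbm5 WT libraries, Pcdhgb5 led in library 25 with 31.8% of 321 counts (26.9% to 37.1%), and Pcdhgb4 in libraries 27 and 29 with 25.3% of 229 (20.1% to 31.3%) and 42.3% of 326 (37.1% to 47.8%). Pcdhgc3 was second in each Rbm5 WT library with 17.5% to 24.0%, and made up 1.38% to 4.44% in Rbm5 KO libraries. The Wilson intervals cover counting error only.

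**Figure D4:**
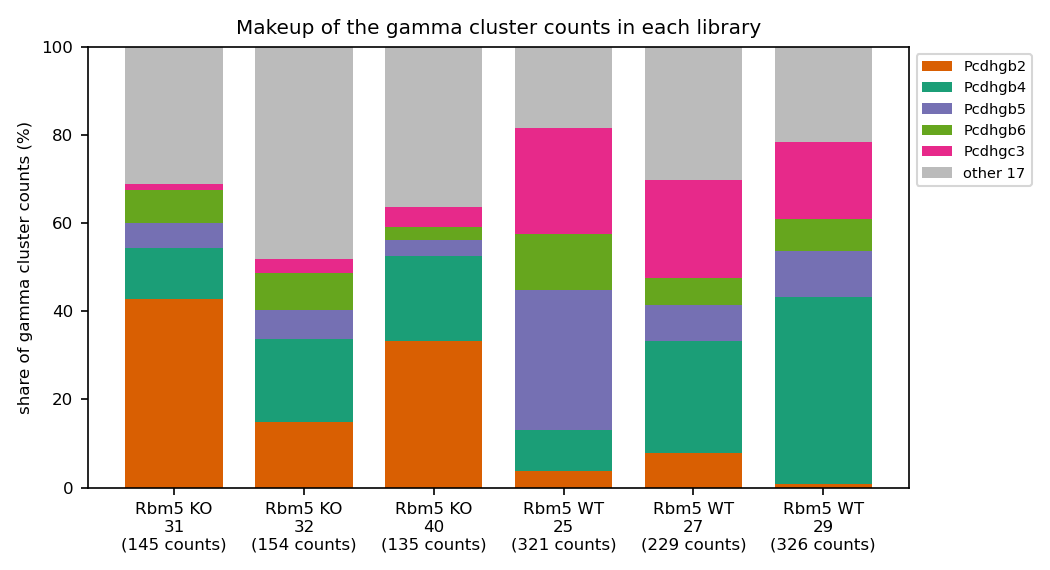
Share of the gamma cluster counts that fell on each of 5 genes and on the other 17 together, in percent, with 1 bar per library, Rbm5 KO on the left and Rbm5 WT on the right. The total under each bar is the number of gamma counts. Pcdhgb2 takes the largest share of a single gene in Rbm5 KO libraries 31 and 40, and Pcdhgc3 a visible share in the Rbm5 WT libraries.

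Sums over stretches of the gamma array also differed in direction, in a split made after the values were seen, though single members did not all follow them. The first 8 genes of the array, Pcdhga1 to Pcdhga6 with Pcdhgb1 and Pcdhgb2, together had 89, 66 and 64 counts in Rbm5 KO libraries 31, 32 and 40, against 34, 29 and 10 counts in Rbm5 WT libraries 25, 27 and 29. The next 11, from Pcdhga7 to Pcdhga12, had 53, 81 and 58 counts in Rbm5 KO libraries, against 197, 140 and 229 counts in Rbm5 WT libraries. Groups did not overlap in either sum, with higher values in Rbm5 KO in the first and lower values in the second, and the shared 3′ exons limit how far single gamma genes can be told apart. The first sum rested largely on Pcdhgb2, with 130 of its 219 Rbm5 KO counts, and Pcdhga2 had 7 counts over Rbm5 KO and 9 over Rbm5 WT. In the second stretch Pcdhgb7, Pcdhga11 and Pcdhgb8 ran against the sum, with 17, 7 and 12 counts over Rbm5 KO and 11, 3 and 7 over Rbm5 WT, and Pcdhga8 had nearly equal means of 0.104 CPM in Rbm5 KO and 0.103 CPM in Rbm5 WT. Pcdhga7, with 12 counts over Rbm5 KO and 42 over Rbm5 WT, had overlapping groups.

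Among those first 8 genes, Pcdhga5 had 9, 2 and 8 counts in Rbm5 KO libraries 31, 32 and 40, against 0, 1 and 0 counts in Rbm5 WT libraries 25, 27 and 29, a ratio of Rbm5 KO to Rbm5 WT of 23.1 (95% counting interval 3.68 to 961). Pcdhga6 had 4, 2 and 1 counts in Rbm5 KO libraries and 0 in Rbm5 WT libraries, at least 2.84-fold higher in Rbm5 KO. Pcdhga1 and Pcdhga3 also had groups that did not overlap, with 22 and 9 counts over Rbm5 KO and 9 and 1 over Rbm5 WT. Pcdhga4 stood out in a single library, with 1, 18 and 1 counts in Rbm5 KO libraries 31, 32 and 40, against 10, 4 and 3 counts in Rbm5 WT libraries 25, 27 and 29. Pcdhgb8, further along the array, had 10 of its 12 Rbm5 KO counts in library 32. The gene models Gm37013, Gm38666 and Gm37388, which run from the alpha into the gamma cluster, had 0 counts in all libraries.

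None of the tested neighbors of the clusters was called lower. Between the beta and gamma clusters, Taf7, a subunit of the general transcription factor TFIID, was at 18.7 ± 5.08 CPM in Rbm5 KO and 11.3 ± 1.30 CPM in Rbm5 WT (SD, n = 3 each; log2 fold change 0.72 ± 0.22 SE, edgeR adjusted p = 0.0777). Slc25a2, a mitochondrial carrier gene beside it, had 4, 0 and 9 counts in Rbm5 KO libraries and 4, 1 and 2 counts in Rbm5 WT libraries. The noncoding gene 3222401L13Rik (37788504 to 37794795), just before Pcdhga1 and outside the list below, was named after its values were seen. It had 46, 68 and 31 counts in Rbm5 KO libraries, against 32, 13 and 13 counts in Rbm5 WT libraries. Its log2 fold change was 1.61 ± 0.48 SE (edgeR adjusted p = 0.0761). The pseudogene Gm8242 beside it was at 0.04 (edgeR adjusted p = 0.962). Of 16 listed neighbors on chromosome 18, 15 were tested, of which 1 rose, 0 fell and 14 were not called by edgeR, and at an unadjusted p under 0.05 there were 3. The one that rose was Arap3, a GTPase-activating protein (log2 fold change 0.74, edgeR adjusted p = 0.0327, and 0.0852 to 0.107 without Rbm5 KO library 31 or 40 or Rbm5 WT library 27 or 29). The 365 other tested genes of chromosome 18 had a median log2 fold change of -0.05, with 21 higher and 10 lower, and the median over all genes tested was -0.01.

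Other protocadherins were mostly unread as well. Of 12 non-clustered protocadherins, only Pcdh7 and Pcdh17 were tested, and 0 passed by edgeR, by DESeq2 or by limma-voom, with 1 at an unadjusted p under 0.05. Pcdh7 was at 5.40 ± 1.80 CPM in Rbm5 KO and 11.1 ± 6.20 CPM in Rbm5 WT (log2 fold change -1.04, edgeR adjusted p = 0.161). Pcdh17 had a log2 fold change of 0.19 (edgeR adjusted p = 0.878). The X-linked Pcdh11x had 7, 23 and 17 counts in Rbm5 KO libraries 31, 32 and 40 and 0 counts in each Rbm5 WT library. Of 20 classical cadherins, atypical cadherins and catenins, 10 were tested and 0 passed by edgeR, with 2 at an unadjusted p under 0.05 (2 were lower by DESeq2 and 0 passed by limma-voom). Those with the smallest p were Cdh17, a cadherin of the gut, at a log2 fold change of -2.59 (edgeR adjusted p = 0.0673), and Fat1, an atypical cadherin, at -1.64 (edgeR adjusted p = 0.0988).

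Genes known to act on promoter choice in the clusters were well expressed in both groups. Ctcf, which binds the promoters and enhancers of the alpha and gamma clusters, was at 176 ± 6.59 CPM in Rbm5 KO and 171 ± 5.49 CPM in Rbm5 WT (log2 fold change 0.05, edgeR adjusted p = 0.757). Of 14 listed genes of CTCF and cohesin, Nipbl fell, Esco1 rose and 12 were not called by edgeR. At an unadjusted p under 0.05 there were 3 of the 14. Nipbl, which loads cohesin on DNA, was at 279, 257 and 300 CPM in Rbm5 KO libraries 31, 32 and 40, against 603, 419 and 443 CPM in Rbm5 WT libraries 25, 27 and 29. The groups did not overlap, and the log2 fold change was -0.81 ± 0.15 SE (edgeR adjusted p = 0.0206, and 0.0635 and 0.0628 without Rbm5 KO library 31 or 40). Esco1, a cohesin acetyltransferase, had a log2 fold change of 0.46 (edgeR adjusted p = 0.0429), and was not called in any fit that left out 1 library (adjusted p = 0.0551 to 0.133), with upper-quartile factors (0.061) or with total counts alone (0.101).

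The list on silencing of protocadherin promoters held 17 genes of DNA methylation and its removal, H3K9 methylation and SMCHD1. Of these, 0 passed by edgeR, by DESeq2 or by limma-voom, and 1 had an unadjusted p under 0.05. That one, Tet1, which starts the removal of DNA methylation, had a log2 fold change of -0.94 (edgeR adjusted p = 0.140). The DNA methyltransferase gene Dnmt3b was at -0.43 on the log2 fold scale (95% interval -0.89 to 0.03, edgeR adjusted p = 0.214). Smchd1, a chromatin protein that silences clustered genes, was at 0.08 on that scale (95% interval -0.15 to 0.30, edgeR adjusted p = 0.662).

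Of 22 listed genes of intracellular partners and processing, 21 were tested, 1 rose, 2 fell and 18 were not called by edgeR. An unadjusted p under 0.05 was met by 9 of the 21. DESeq2 called 3 higher and 2 lower, and limma-voom 1 higher and 2 lower. Fyn, a Src family kinase that binds protocadherin alpha in brain, was at 2.49, 3.17 and 2.45 CPM in Rbm5 KO libraries 31, 32 and 40, against 9.76, 6.46 and 10.8 CPM in Rbm5 WT libraries 25, 27 and 29. The groups did not overlap, and the log2 fold change was -1.73 ± 0.28 SE (edgeR adjusted p = 0.0143, and 0.0616 without Rbm5 KO library 40). Among subunits of the WAVE actin-regulating complex, which some protocadherin tails bind, Abi2 fell by 1.17 (edgeR adjusted p = 0.0307) and Cyfip2 rose by 0.64 on the log2 scale (edgeR adjusted p = 0.0216). The other tested subunits were not called by edgeR. Abi1, Cyfip1, Nckap1l, Wasf2 and Nckap1 had log2 fold changes of 0.41, 0.41, 0.42, 0.24 and 0.13, and Brk1 had -0.28. Abi2 was called with 1 library left out only without Rbm5 WT library 27, with adjusted p-values of 0.0574 to 0.107 otherwise. Cyfip2 had adjusted p-values of 0.0523, 0.0642 and 0.0569 without Rbm5 WT libraries 25, 27 and 29.

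Summed markers of neural, endothelial and stromal cells overlapped between the groups, though single markers did not all follow the sums. Of 10 neural and glial markers, Snap25, Syt1 and Nefl had 0 counts in all libraries, and the list summed to 1.80 to 2.60 CPM in Rbm5 KO libraries and 2.09 to 2.43 CPM in Rbm5 WT libraries. Of 10 endothelial markers, Emcn had 0 counts, and the list summed to 85.5 to 161 CPM in Rbm5 KO libraries and 103 to 187 CPM in Rbm5 WT libraries, most of it Pecam1, which leukocytes also express. The 10 stromal and osteoblast markers summed to 31.9 to 41.9 CPM in Rbm5 KO libraries and 35.7 to 72.2 CPM in Rbm5 WT libraries. Most of the Rbm5 WT sum was Pdgfrb (log2 fold change -1.07), while the median log2 fold change of that list was 0.86, with 1 of 4 below 0. Of the 2 neural, 3 endothelial and 4 stromal markers tested, 0 passed by edgeR or limma-voom, 2 stromal ones had an unadjusted p under 0.05, and DESeq2 called 1 stromal marker higher and 1 lower. The B cell list and the T and NK cell list also had overlapping sums. Most of the T and NK sum was Nkg7 (log2 fold change -0.25), while the median log2 fold change of that list was 1.39, with 1 of 7 below 0. Of 3 B cell markers tested, 0 passed by edgeR, DESeq2 or limma-voom and 0 had an unadjusted p under 0.05. Of 7 T and NK cell markers tested, 0 passed by edgeR or limma-voom, 3 had an unadjusted p under 0.05 and DESeq2 called 2 higher.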

How the data were processed

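The authors deposited whole-number counts per gene for 6 libraries, not normalized, with gene names, biotypes, coordinates and a gene length (another value, in bases) in the file. Per the submitters' processing notes, Salmon, limma, GRCm38 and mm10 are named without a role. For reads in shared exons, and for strand, the counting rule stands as not given in the sources used here. Coordinates in the table carry no build, and 0 of the 58 genes had the start that GENCODE of GRCm38 gives, so only exon lengths and their sharing were taken from the GENCODE annotation of that build.

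Groups came from the sample titles. Genes were kept by filterByExpr (minimum count 10, minimum total 15). TMM factors were applied, and a robust quasi-likelihood model was fitted (edgeR 4.0.16 in R 4.3.3), Rbm5 KO against Rbm5 WT without covariates, with Benjamini-Hochberg adjustment over all genes tested and a threshold of 0.05. Each SE was taken as the fold change over the root of F. Levels are TMM-scaled CPM, and cluster sums carry no test. With 0 counts in a group, the fold was set against 3 counts over the group, and with 1 to 3 counts it is a ratio with an exact interval. Members were named if called, among the 4 best read of a cluster, leading a library, C-type, or with at least 10 counts in 1 library only, and the other members named were chosen after their values were seen. Of each gene list, up to 4 called members or otherwise the 2 with the smallest p were named, with Taf7, Slc25a2 and single values where a list is described. All 170 listed symbols were found. The members, lists and tests were chosen with earlier results of these data known. The fit was tested on simulated data. Alternatives used limma 3.58.1 and DESeq2 1.42.0. The labels name no animals, so p-values measure only the spread between these samples, which may be technical. No sequences are printed.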

Additional observations from a re-analysis of the deposited data

How the results depend on the processing

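No paired analysis was possible because the groups share no replicate numbers. Of the 58 clustered protocadherins, 48 had too few counts to be tested at this depth. Of the repeated fold changes of the 10 that were tested, 128 stayed on their side of the threshold with their direction, 6 lost the call and 11 gained it, and 1 turned round (Pcdhgb4, log2 fold change 0.068 without both Rbm5 WT libraries 27 and 29, a fit chosen after seeing the data). Pcdhb16 and Pcdhgc3 were called in each alternative that kept more than 1 Rbm5 WT library. Both passed the filter only through their Rbm5 WT counts, and the family was chosen on this contrast, so these calls are no separate support. Without a filter on low counts, 1 clustered protocadherin was called higher and 10 lower, 836 genes were called lower in all and 12 members of the context lists were called. DESeq2 called 1 and 7 clustered protocadherins, 1553 and 1054 genes higher and lower, and 11 list members. Without both Rbm5 WT libraries 27 and 29, so that the lone Rbm5 WT library was taken to vary as the Rbm5 KO ones do, 305 genes were higher, 148 lower and 1 list member was called. As reported, 870 genes were higher, 498 lower and 6 list members called. The causes were not tested. With 1 library left out, all genes called higher ranged from 245 to 787 and lower from 102 to 440, list members called from 1 to 6, and clustered protocadherins called lower from 3 to 4. With total counts alone, 597 genes were higher and 682 lower, with a median shift of -0.14 (log2) over all genes, and the same 4 clustered protocadherins were called. The summed beta log2 ratio was -3.54 to -2.49 and the summed gamma log2 ratio -0.82 to -0.64 with 1 library left out. The alpha cluster had no counts in Rbm5 KO and no ratio, and the alternative with non-coding rows of the same names gave no value because there were 0 such rows.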
